A study of Mus musculus with 2 samples.

Results

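Broad intermediate-timing plateaus are long stretches of an autosome whose replication timing score stays near its zero point, neither clearly early nor clearly late. They were taken from the score table smoothed over 300 kb, on chromosomes 1 to 19. A plateau was a run of consecutive positions with a score between -0.5 and 0.5, at least 500 kb from first to last position, and ended by any gap over 300 kb. Members were thus chosen by the score itself, and their scores are given as description. The rule gave 193 plateaus out of 1902 runs in that band. They held 20742 of 364448 autosomal positions (5.69%) and covered 134 Mb, and the whole series had 384794 positions with a value.

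The score compares an early S phase library with a late S phase library of mouse 46C embryonic stem cells (strain 129P2/Ola), both kept in leukemia inhibitory factor. Both fractions came from cells given 50 µM bromodeoxyuridine (BrdU) for 2 h, a thymidine analogue that marks newly made DNA, and both were sorted on propidium iodide for DNA content. BrdU-labelled DNA from 10000 cells of each fraction was pulled down by antibody, amplified across the whole genome and read on an Ion Torrent sequencer. There was 1 library per fraction and 1 score for the pair, so no value below has an experimental error and no test was possible.

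Replication timing is the order in which parts of a chromosome are copied during S phase. Gene-rich, active chromatin is known to be copied early and gene-poor chromatin at the nuclear lamina late, in domains joined by timing transition regions. Near-zero scores can arise where copying falls in the middle of S phase, where a fork passes from early into late DNA, or where cells or parental copies differ in timing, and a score from a pool of cells does not separate these.

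A positive score was read as early because the deposited table is named with early before late, which is an assumption. No source used here states the log base, the scaling or what a score of 0 stands for, and scores are therefore not read as folds. Positions lay a median of 5771 bp apart in plateaus, and smoothing makes neighbouring positions dependent.

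Promoters of 7 plateau genes are given as examples. Gene scores below are taken at gene midpoints, not at promoters. Each is 300 bases of RefSeq sequence on GRCm38.p6 (mm10 coordinates), from 250 bases before the start that the RefSeq promoter table gives to 50 after it, on the strand of the gene and with every CG in capitals. That start lies 9.37 kb inside the annotated span of Eno4 and 515 bases inside that of Enox1. In the other 5 it lies within 77 bases of where the annotated gene begins on its own strand. They were chosen after the values were seen, from the longest plateau of each flank kind with a well-covered profile and from the imprinted, amine receptor and cytochrome plateaus described below.
Creb5, chr6:53287053-53287352, plus strand: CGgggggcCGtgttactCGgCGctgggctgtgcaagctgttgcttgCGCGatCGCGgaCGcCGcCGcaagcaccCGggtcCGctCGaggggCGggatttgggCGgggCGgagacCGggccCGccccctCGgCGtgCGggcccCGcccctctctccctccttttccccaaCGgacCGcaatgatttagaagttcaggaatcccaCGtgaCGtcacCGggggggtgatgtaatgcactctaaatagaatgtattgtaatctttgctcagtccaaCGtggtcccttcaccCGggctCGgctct
Enox1, chr14:77156513-77156812, plus strand: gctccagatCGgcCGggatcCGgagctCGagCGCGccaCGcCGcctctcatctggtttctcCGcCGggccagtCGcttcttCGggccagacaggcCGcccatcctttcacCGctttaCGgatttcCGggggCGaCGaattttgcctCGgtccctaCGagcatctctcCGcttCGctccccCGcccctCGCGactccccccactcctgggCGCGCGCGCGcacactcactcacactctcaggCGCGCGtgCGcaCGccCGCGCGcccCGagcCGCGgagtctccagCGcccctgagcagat
Eno4, chr19:58943175-58943474, plus strand: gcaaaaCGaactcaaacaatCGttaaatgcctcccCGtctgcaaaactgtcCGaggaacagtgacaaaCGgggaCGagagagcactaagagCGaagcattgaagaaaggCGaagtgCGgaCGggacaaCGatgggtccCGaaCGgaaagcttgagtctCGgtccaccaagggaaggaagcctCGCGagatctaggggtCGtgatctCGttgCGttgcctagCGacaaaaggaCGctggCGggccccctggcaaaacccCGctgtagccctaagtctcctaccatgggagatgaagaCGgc
Meg3, chr12:109540746-109541045, plus strand: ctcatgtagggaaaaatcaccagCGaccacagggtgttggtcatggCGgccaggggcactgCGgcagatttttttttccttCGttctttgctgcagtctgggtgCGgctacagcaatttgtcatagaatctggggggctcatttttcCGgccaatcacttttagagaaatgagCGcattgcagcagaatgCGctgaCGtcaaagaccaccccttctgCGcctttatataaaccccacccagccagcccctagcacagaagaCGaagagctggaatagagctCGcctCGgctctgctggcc
Peg3, chr7:6730370-6730669, minus strand: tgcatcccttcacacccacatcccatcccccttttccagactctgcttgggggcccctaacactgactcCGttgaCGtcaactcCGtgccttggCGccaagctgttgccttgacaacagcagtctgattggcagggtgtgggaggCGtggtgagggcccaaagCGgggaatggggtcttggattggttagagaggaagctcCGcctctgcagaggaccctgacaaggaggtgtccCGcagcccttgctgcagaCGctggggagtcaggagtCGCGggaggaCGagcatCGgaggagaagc
Taar5, chr10:23970456-23970755, plus strand: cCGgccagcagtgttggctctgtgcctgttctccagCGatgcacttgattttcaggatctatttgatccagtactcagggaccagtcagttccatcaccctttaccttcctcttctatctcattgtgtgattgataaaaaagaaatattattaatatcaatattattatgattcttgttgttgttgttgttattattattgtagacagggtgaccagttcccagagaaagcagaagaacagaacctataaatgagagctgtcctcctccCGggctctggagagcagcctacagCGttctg
Cyp2b9, chr7:26173159-26173458, plus strand: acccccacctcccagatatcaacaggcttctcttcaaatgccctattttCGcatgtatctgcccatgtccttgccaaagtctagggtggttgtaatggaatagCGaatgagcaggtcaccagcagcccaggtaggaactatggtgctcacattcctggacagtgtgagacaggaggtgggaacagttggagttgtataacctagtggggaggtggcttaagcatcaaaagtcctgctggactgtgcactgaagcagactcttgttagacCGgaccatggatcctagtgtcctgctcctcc
The Creb5, Enox1 and Eno4 promoters hold 31, 42 and 24 CG pairs, against 13 each at Meg3 and Peg3, 4 at Taar5 and 3 at Cyp2b9. CG reads the same on both strands. At least 1 CG occurred in 94.2% of the 796 promoters of plateau genes and in 95.05% of all 16456 promoters on the autosomes, so its presence separates nothing, and its density is given below.

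Plateaus had a median length of 645 kb (quartiles 564 and 748 kb), against 178 kb for all runs in the band. They were the upper tail of an unbroken range of lengths, as the plot of run lengths shows. Just inside the 500 kb minimum, 37 runs measured 500.093 to 546.404 kb with a median score of -0.02. Just outside it, 49 runs measured 453.932 to 499.867 kb with a median of -0.0031. Only 15 plateaus reached 1 Mb, and the longest spanned 2017 kb.

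**Figure D1:**
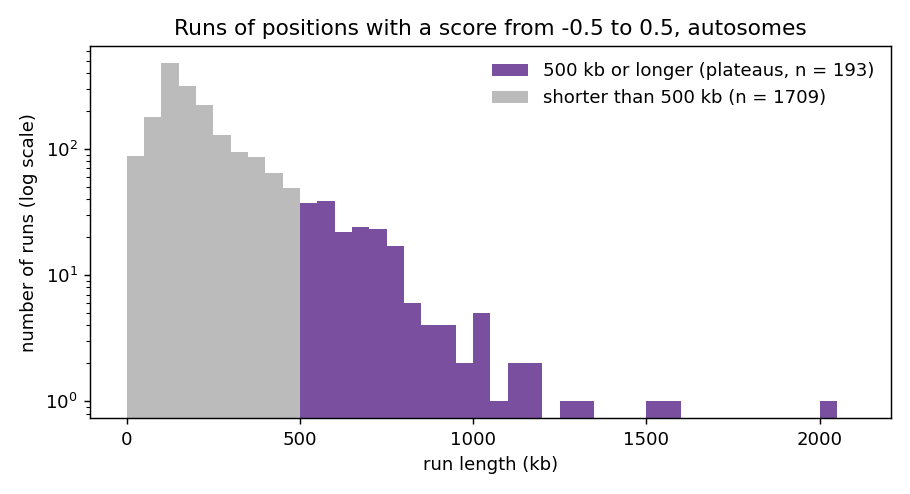
Lengths in kb of all autosomal runs with a score from -0.5 to 0.5, in 50 kb steps, with the number of runs on a log scale. Purple bars are the 193 plateaus and grey bars the 1709 shorter runs, and no gap in length separates them.

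The median score over the 193 plateaus was -0.02, and their own medians ran from -0.37 to 0.37. The lowest belonged to a plateau on chromosome 13 (19928035 to 20520529) filled for 72.6% by Elmo1, a regulator of Rac and of cell engulfment. The highest belonged to a plateau on chromosome 2 (146692263 to 147410907) with Nkx2-2 and Pax1, developmental transcription factors of the ventral neural tube and the sclerotome.

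The word plateau fitted only some of the runs. Across the central 50% of its length, the score of a plateau moved through a median range of 0.42, and this range ran from 0.0551 to 0.91. It was under 0.3 in 49 plateaus. The score crossed 0 in 180 plateaus, and 3 or more times in 70 of them, counting any change of sign between adjacent positions. These include 71 plateaus with an early run on one side and a late run on the other, which had to cross 0. The score stayed above 0 throughout in 5 plateaus and below 0 throughout in 8.

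Local slope was measured as the change in score over 100 kb. Runs under 100 kb gave no value, so 1442 of the 1709 shorter runs of the band were measured. The median was 0.188 in plateaus (quartiles 0.133 and 0.238), against 0.189 in early runs of at least 500 kb above 0.5, 0.167 in late runs of at least 500 kb below -0.5, and 0.369 in shorter runs of the band. Plateaus thus undulated about as much per 100 kb as long early and late runs did. The lower value than in shorter runs follows in part from the rule, since a steep stretch leaves the band before it reaches 500 kb.

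The flattest well-covered plateau lay on chromosome 8 (48325369 to 48848184), wholly inside Tenm3, a teneurin adhesion protein of neural wiring. Its central score varied by 0.113. Next came a plateau on chromosome 5 (96716472 to 97314620) with Anxa3, Bmp2k and Paqr3, where the central score varied by 0.114 and 90.2% of positions lay within 0.2 of its median. The steepest was a plateau on chromosome 14 (46313580 to 47072800) with Bmp4, a signalling ligand of early development, whose central score varied by 0.91.

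The runs on either side sorted the plateaus into 3 shapes. There were 71 slopes with an early run on one side and a late run on the other (36.8%, 48.6 Mb), 68 rises between late runs (35.2%, 47.3 Mb) and 50 dips between early runs (25.9%, 35.9 Mb). The other 4 had no flank on a side. Shorter runs of the band were made up differently, with 1013 slopes among 1709, 373 rises and 284 dips. A run that crosses from early to late must pass the band, so the larger part of slopes among short runs is partly built in.

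Dips had a median lowest score of -0.23, between -0.49 and 0.15, and 45 of the 50 went below 0. Their flanks reached a median of 1.37. Rises had a median highest score of 0.28, between -0.09 and 0.50, and 62 of the 68 went above 0, between flanks that reached a median of -1.34. Slopes linked early flanks with a median extreme of 1.30 to late flanks with a median extreme of -1.08. Only 9 of the 71 slopes ran in 1 direction within a tolerance of 0.1, and 39 crossed 0 at least 3 times.

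**Figure D2:**
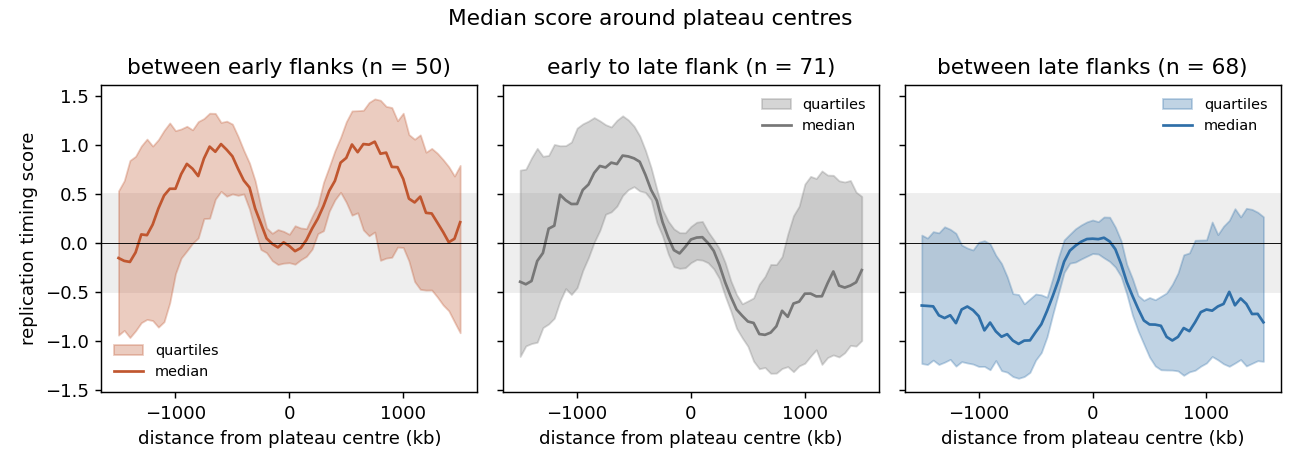
Replication timing score against the distance from the plateau centre in kb, as the median (line) and quartiles (shading) over 50 dips between early runs, 71 slopes turned so that the early flank is on the left, and 68 rises between late runs. The grey band runs from -0.5 to 0.5. At the centre the medians were -0.03 in dips, 0.04 in slopes and 0.04 in rises.

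Plateaus occurred on all 19 autosomes, and chromosome 13 had the most. It held 23 plateaus over 16.4 Mb (14.04% of its span), against 13 and 8.34% on chromosome 12, 14 and 7.68% on chromosome 10, and 15 and 7.14% on chromosome 7. Chromosome 16 held 1 plateau of 0.805 Mb (0.848%), a rise with Bcl6, a transcriptional repressor of germinal centre B cells, and Sst, the hormone somatostatin. On chromosome 13, 32.1% of positions lay in the band, against 15.1% on chromosome 16, and 46.3% of those positions lay in plateaus, against 6.18% on chromosome 16. The SD of the score along the chromosome was 0.909 on chromosome 13, the lowest of the autosomes, against 1.08 on chromosome 16. The part that this narrower spread plays in the count was not tested. Neighbouring plateaus lay a median of 6.47 Mb apart, and 24 of 174 neighbouring pairs lay within 1 Mb.

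**Figure D3:**
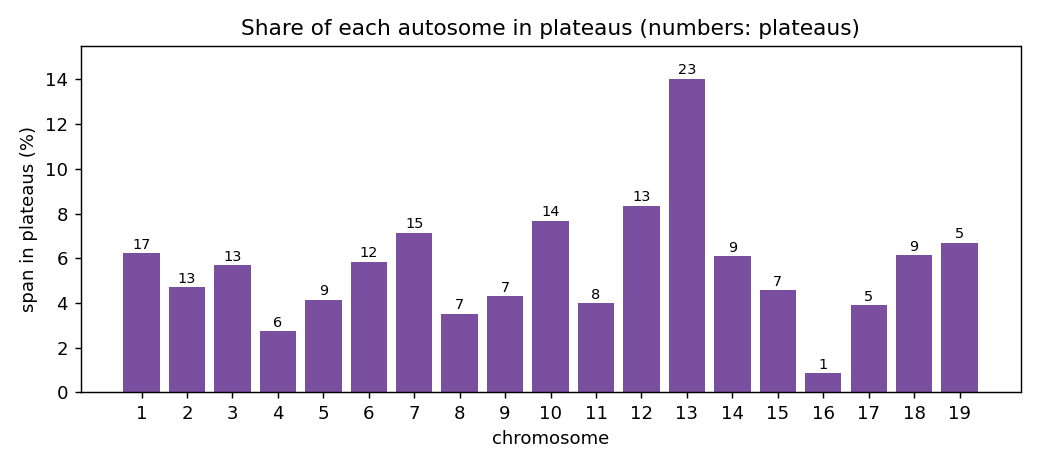
Share of the span of each autosome in plateaus, in percent, with the number of plateaus above each bar. Chromosome 13 stands at 14.04% with 23 plateaus and chromosome 16 at 0.848% with 1.

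The gene content of plateaus, which the rule did not use, lay between that of early and late runs. RefSeq placed the midpoints of 971 protein-coding genes in plateaus, 4.72% of the 20554 on autosomes, beside 5.69% of positions. All 2717 genes of any class in plateaus were 5.82% of the 46705 placed. Density was 7.23 protein-coding genes per Mb in plateaus (exact Poisson 95% interval 6.78 to 7.70, for counting only), against 18.4 in early runs, 2.84 in late runs and 7.11 in shorter runs of the band. Density was thus close in plateaus and in shorter runs of the same band. No early run lacked a protein-coding gene midpoint, while 6 plateaus (3.11%) and 79 late runs (13.2%) did.

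Plateau genes were longer at the median than genes of either extreme, with 25.6 kb in plateaus, against 17.1 kb in early runs, 11.2 kb in late runs and 23.2 kb in shorter runs of the band. The share over 300 kb was 3.81% in plateaus (37 genes), against 0.322% in early runs, 9.93% in late runs and 4.14% in shorter runs. The 860 long non-coding RNA genes in plateaus were 6.98% of those on autosomes, and the 507 pseudogenes 5.76%. For each 100 protein-coding genes there were 88.6 long non-coding RNA genes in plateaus, against 45.6 in early runs and 91.7 in late runs. Pseudogenes numbered 52.2 per 100 in plateaus, against 22.0 in early runs and 102.4 in late runs.

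Over all genes, promoters of plateaus stood between those of early and late runs. The ratio of observed to expected CG had a median of 0.57 in plateaus (95% order-statistic interval 0.506 to 0.611 over genes), against 0.70 in early runs, 0.22 in late runs and 0.43 in shorter runs. CG-rich promoters, with a ratio of at least 0.6 and a GC content of at least 50%, made up 44.1% in plateaus, against 58.3% in early runs, 19.2% in late runs and 36.7% in shorter runs. The interval counts neighbouring genes as independent. With the 1 gene nearest each plateau centre, the median ratio was 0.70 over 166 plateaus, close to that of all genes in early runs. This choice changes both the number of genes and their place in the plateau, and it was not made for early or late runs. The place of plateaus below early runs in this ratio thus rests on counting all genes.

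**Figure D4:**
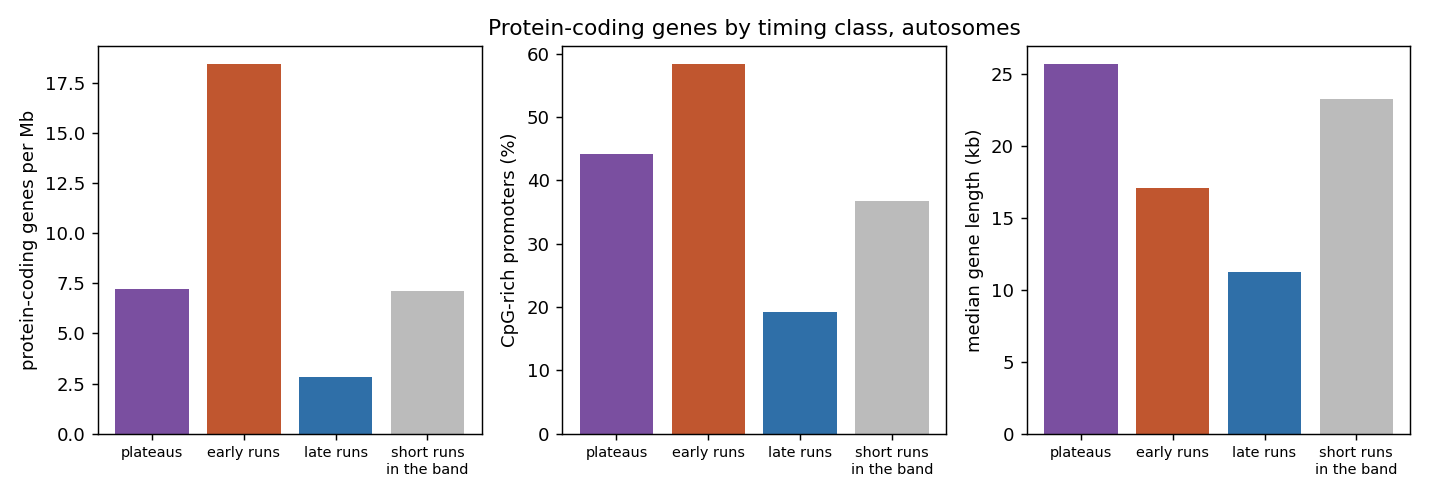
Protein-coding genes per Mb, percent of CG-rich promoters and median gene length in kb, for plateaus, early runs, late runs and shorter runs of the band. Plateaus stand between early and late runs for the first 2 measures, at 7.23 genes per Mb and 44.1%, and have the longest genes at the median, 25.6 kb.

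Long genes were unevenly spread over the 3 shapes. Dips held 20 genes over 300 kb among 249 (8.03%), against 11 of 359 in slopes (3.06%) and 6 of 316 in rises (1.90%), although gene density was close in all of them (6.93, 7.38 and 6.68 per Mb). The median gene length differed little, with 30.7 kb in dips, 26.0 kb in slopes and 28.4 kb in rises. Dips kept the larger share of genes over 300 kb than rises under all 6 other settings of the rule tried, though with a band of 0.25 around 0 this rests on 2 genes of 29 in dips and 0 of 44 in rises. With that band dips stood below slopes, at 6.90% against 16.7% (3 of 18 genes). These genes were singled out after their values were seen.

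Among the long genes of dips, Exoc4, a subunit of the exocyst that tethers secretory vesicles, had a midpoint score of -0.23 and covered its whole plateau. Atxn1, the gene of ataxin-1, a repressor linked to spinocerebellar ataxia, had -0.45. Dock4, an activator of small GTPases, had -0.41, and Prkcb, a protein kinase C, had -0.30. Ntrk2, the receptor for brain-derived neurotrophic factor, had 0.07. The 20 genes of dips ranged from -0.45 at Atxn1 to 0.49 at Fam189a1, with Fry at 0.47, so they lay on both sides of 0. Among the long genes of rises, Mast4, a microtubule-associated kinase, had -0.32, and Ebf1, a transcription factor of B cell development, had -0.17. The rest were Elmo1 (-0.49), Galnt17 (-0.41), Oxr1 (0.03) and Mcc (0.29).

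Some turning points lay inside genes. The lowest point fell within a protein-coding gene in 30 of 50 dips (60.0%), whose median length was 245 kb, and within a gene over 100 kb in 21 dips (42.0%). Of all positions in dips, 51.7% lay in a protein-coding gene and 37.5% in one over 100 kb, so the lowest points stood close to the rest of the dips. The highest point of rises fell within a protein-coding gene in 24 of 68 rises (35.3%), with a median length of 59.9 kb, and within a gene over 100 kb in 9 rises (13.2%), beside 49.2% and 33.3% of all positions in rises.

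Gene starts were also counted around these points. Within 100 kb of the highest point of rises there were 7.51 starts per Mb (102 starts), against 5.19 per Mb in the rest of the rises. CG-rich starts numbered 3.68 per Mb near that point, against 2.46 in the rest, and 51 of 68 rises had a start there. Within 100 kb of the lowest point of dips there were 4.80 starts per Mb (48 starts), against 5.90 per Mb in the rest, and 1.60 CG-rich starts per Mb, against 2.70 in the rest. With a window of 50 kb the values were 8.53 near the highest point of rises, against 5.41 in the rest, and 6 near the lowest point of dips, against 5.53 in the rest, so the deficit in dips did not keep its direction. A 150 kb window gave 7.12 against 4.93 in rises and 5.19 against 5.87 in dips. With a band from -0.25 to 0.25 both directions turned, with 6.74 near against 7.46 in the rest for 9 rises and 8.44 against 3.28 for 6 dips. The dips also turned with a minimum of 300 kb (6.40 against 6.10) and of 1 Mb (6 against 4.17), while the rises kept their direction there (7.42 against 4.72, and 7.86 against 6.18). The position of these points comes from a score smoothed over 300 kb, and smoothing widens them.

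Gene direction showed no lean in slopes. Of 289 genes with a known strand, 150 pointed from the early to the late side, 51.9% (exact binomial 95% interval 46.0 to 57.8, for counting only). In shorter slopes it was 507 of 1049, 48.3% (45.3 to 51.4).

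The second longest plateau, on chromosome 6 (52470369 to 54022862), was a dip of 1552 kb with 260 positions. Its median was 0.00 and its scores ran from -0.29 to 0.48, between flanks that reached 1.63 and 0.58. It held Hibadh, an enzyme of valine breakdown (0.29), and Tax1bp1, an autophagy receptor (0.35), at one end. Jazf1, a zinc finger protein, scored -0.06, Creb5, a cAMP-response element binding factor, -0.12, and Tril, a partner of Toll-like receptors, -0.01. Its right flank was only 80.6 kb long and barely outside the band.

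A dip on chromosome 13 (45052114 to 46569858, 1518 kb) had its lowest score, -0.45, inside Atxn1, between flanks that reached 1.54 and 1.53. Mylip, a ubiquitin ligase for the LDL receptor, scored -0.09, and Gmpr, a GMP reductase, 0.02. Stmnd1 scored -0.23 and Rbm24, an RNA-binding protein of muscle, -0.24. A dip on chromosome 9 (47560376 to 48841498, 1281 kb) was shallower, with a lowest score of -0.15 inside the overlapping genes Nxpe4 (-0.06 at its midpoint) and Nxpe2 (-0.14). In it Cadm1, a cell adhesion molecule, scored -0.11, Rexo2, an oligoribonuclease, 0.31, Rbm7, a subunit of the nuclear exosome targeting complex, 0.35, Nnmt, nicotinamide N-methyltransferase, 0.13, and Zbtb16, a zinc finger repressor, 0.02.

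A slope on chromosome 14 (76809449 to 77982794, 1173 kb) showed a long gene across the middle of a transition. Lacc1, an immune metabolic enzyme, scored 0.47 and Ccdc122 0.37 at the early end. Enox1, a cell surface oxidase gene of 566 kb and the longest lying wholly inside a plateau, scored 0.01. Dnajc15, a mitochondrial co-chaperone, scored -0.13 and Epsti1 -0.45 at the late end. The late flank reached only -0.51 over 39.9 kb. The next longest genes wholly inside a plateau were St6galnac3 (527 kb, 0.09), a sialyltransferase, Galnt17 (433 kb, -0.41), Atxn1 (415 kb) and Oxr1 (414 kb, 0.03), an oxidation resistance gene. Galnt17 belongs to a family of enzymes that add the first sugar of O-linked glycans.

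A rise on chromosome 19 (58401375 to 59550126, 1149 kb) stayed below 0 throughout, from -0.50 to -0.05, between late flanks that reached -0.77 and -1.05. Its highest point lay inside Eno4, a sperm enolase (-0.05), whose promoter is printed above. Shtn1, a regulator of axon growth, scored -0.10, Vax1, a homeobox gene of the eye and forebrain, -0.13, and Hspa12a, an Hsp70 relative, -0.15. Pnliprp2, a pancreatic lipase relative, scored -0.19 and Emx2, a homeobox gene of the cerebral cortex, -0.21.

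On chromosome 5 (130821435 to 131948074, 1127 kb) Galnt17 scored -0.41 near one end of a rise, and the highest score, 0.47, lay inside Auts2, a neurodevelopmental gene whose midpoint lay outside the plateau at -0.72. On chromosome 1 (138696441 to 139789234, 1093 kb) a rise held Dennd1b, a Rab35 activator (-0.29), Crb1, a retinal polarity protein (0.11), Zbtb41 (0.20), Aspm, a spindle protein needed for brain growth (0.25), and F13b, a clotting factor subunit (0.26). On chromosome 14 (72651368 to 73658674, 1007 kb) a rise between flanks of -1.74 and -1.72 held Rb1, the retinoblastoma cell cycle repressor, at 0.17. Its highest point, 0.46, lay 2.998 kb from the start of Itm2b (0.44).

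**Figure D5:**
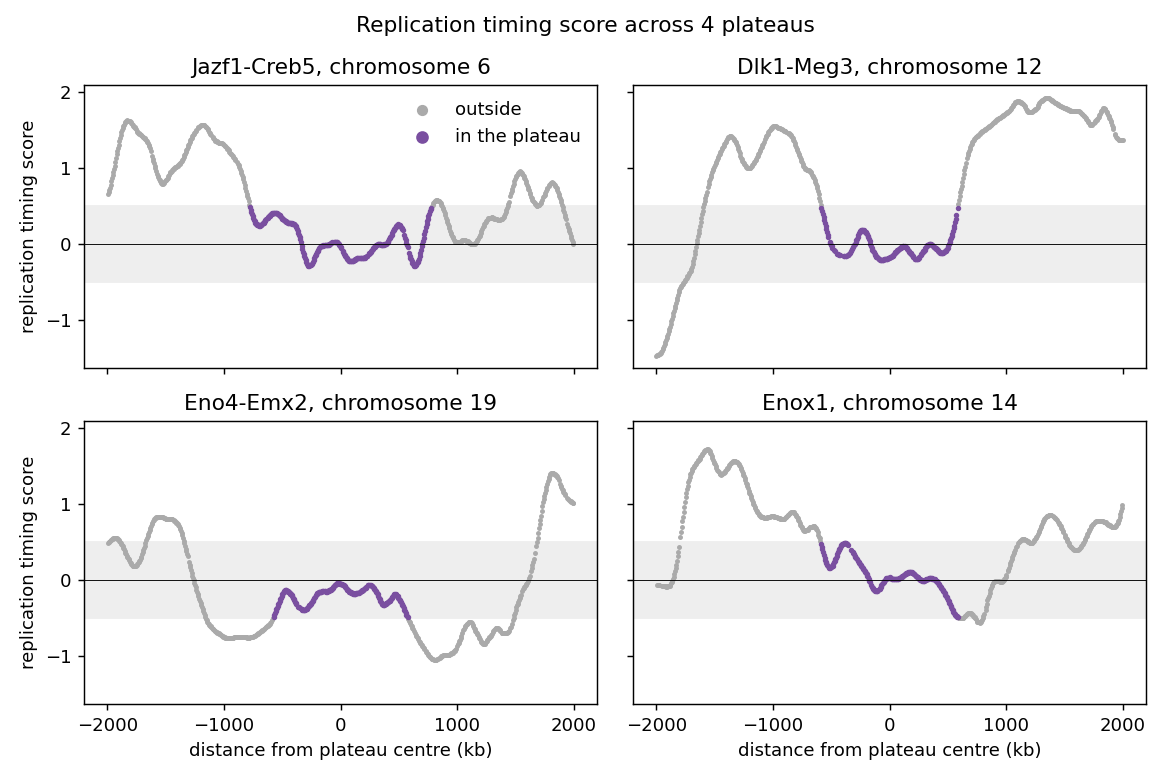
Replication timing score at each position against the distance from the plateau centre in kb, for the dips on chromosome 6 (Jazf1 and Creb5) and chromosome 12 (Dlk1 and Meg3), the rise on chromosome 19 (Eno4 and Emx2) and the slope on chromosome 14 (Enox1). Purple points lie in the plateau, grey points outside it, and the grey band runs from -0.5 to 0.5. The chromosome 12 dip falls between flanks of 1.55 and 1.92, and the chromosome 19 rise stays below 0.

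Imprinted genes, which are expressed from the copy of 1 parent, were found in plateaus more often than protein-coding genes at large. Of 30 listed imprinted genes 6 lay in plateaus (20.0%), beside 4.72% of all protein-coding genes, and these 6 lay in only 3 plateaus. Another 12 were early (40.0%), 7 late (23.3%) and 5 in shorter runs of the band (16.7%). Of all protein-coding genes 64.3% were early, 17.5% late and 11.4% in shorter runs of the band. Neighbouring imprinted genes share their plateau, so they count as 3 places rather than 6. H19, 1 of the 6, is a long non-coding RNA gene, a class with 6.98% in plateaus. The non-coding genes Meg3, Rian and Mirg, described below, were not on the list. With 0 reset to the autosomal median, -0.30, 4 of 30 (13.3%) lay in plateaus, beside 4.71% of all protein-coding genes. The score cannot separate both parental copies, and their part in the near-zero values was not tested.

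The Dlk1-Meg3 dip on chromosome 12 (109061109 to 110228213, 1167 kb) had a median of -0.07 and scores from -0.21 to 0.47, between early flanks that reached 1.55 and 1.92. Dlk1, a Notch ligand relative expressed from the paternal copy, scored 0.11. The maternally expressed long non-coding RNAs scored -0.20 for Meg3, -0.19 for Rian and -0.05 for Mirg. Rtl1, a retrotransposon-derived placental gene, scored -0.21, and the lowest point of the dip lay inside it.

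This dip also carried 60 microRNA genes, with scores from -0.21 to -0.04 (median -0.08), and 19 small nucleolar RNA genes, from -0.19 to -0.12. All plateaus together held 64 small nucleolar RNA genes, 5.02% of those on autosomes. The dip supplied most of the 91 microRNA genes in plateaus, which were 8.01% of the 1136 on autosomes. Without it 31 of 1076 (2.88%) lay in plateaus, below the share of positions. RefSeq listed 57 hairpins of the cluster on chromosome 12 (109544588 to 109747960, 203 kb), with 111 mature names and 102 seeds, the bases 2 to 8 that pair with target RNAs. Only 9 seeds were shared, by 18 mature microRNAs. The mature sequences of 3 pairs, chosen for a shared seed, are given from RefSeq on GRCm38.p6, with the seed in capitals.
mmu-miR-379-3p, chr12:109709102-109709123, plus strand: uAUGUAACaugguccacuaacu
mmu-miR-411-3p, chr12:109710225-109710246, plus strand: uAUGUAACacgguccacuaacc
mmu-miR-379-5p, chr12:109709065-109709085, plus strand: uGGUAGACuauggaacguagg
mmu-miR-1193-5p, chr12:109715716-109715735, plus strand: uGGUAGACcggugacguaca
mmu-miR-494-5p, chr12:109715334-109715355, plus strand: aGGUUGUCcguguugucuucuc
mmu-miR-410-5p, chr12:109743729-109743749, plus strand: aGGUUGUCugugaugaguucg
After the seed, miR-379-3p and miR-411-3p had the same base at 12 of 14 positions, miR-494-5p and miR-410-5p at 8 of 13, and miR-379-5p and miR-1193-5p at 2 of 12. Mir379 and Mir411 both scored -0.08, and smoothing gives such close neighbours nearly the same value. Mir1193 and Mir494 scored -0.08 and Mir410 -0.04.

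The H19-Igf2 dip on chromosome 7 (142089211 to 142859682, 770 kb) held 24 protein-coding genes, as many as any plateau. Igf2, the paternally expressed growth factor, scored -0.32, Ins2, an insulin gene, -0.35, and H19, a maternally expressed non-coding RNA, -0.18. Towards the centre Mrpl23, a mitochondrial ribosomal protein, scored -0.12, Tnnt3, a fast-muscle troponin, -0.04, Lsp1, a leukocyte actin-binding protein, 0.09, and both Tnni2, another troponin, and Syt8, a synaptotagmin, 0.17. Early flanks reached 1.96 and 1.52.

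Peg3, a paternally expressed zinc finger gene, lay in a slope on chromosome 7 (6520164 to 7296326, 776 kb) at -0.18, with Zim1 at -0.24 and Usp29 at 0.03. The early flank reached 1.53 and the late flank -1.06. The first position beyond the late end lay 167 kb away, at -0.77, so that edge was not traced. The slope was not in 1 direction, since Zfp418 scored 0.40 on the late side of these genes.

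Homeobox transcription factors were also found above the background, at 11 of 85 (12.9%) in 8 plateaus, beside 4.72%. They included Lhx9 (0.16), needed for gonad formation, Meis2 (0.33), a cofactor of Hox proteins, Irx3 (0.19) and Irx5 (-0.17), Iroquois patterning genes in 1 slope, and Nkx2-4 (0.39) beside Nkx2-2 (0.32). Otx1 (-0.07) patterns the forebrain, Pou3f3 (-0.39) the cortex and kidney, and Msx1 (0.48) the teeth and palate. None of the 39 Hox genes lay in a plateau, and all 39 were early, beside 64.3% of all protein-coding genes. After the same reset, 8 of 85 (9.41%) lay in plateaus, beside 4.71% of all protein-coding genes.

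Other developmental lists had from 0 to 4 members in plateaus, to be read beside 4.72% of all protein-coding genes. Of 31 neural genes 4 lay in plateaus (Emx2, Nkx2-2, Irx3 and Pou3f3, 12.9%), all of them homeobox genes given above, and 2 (6.45%) after the same reset. None of 30 mesoderm and endoderm genes did, and 2 (6.67%) after the reset. Sox9, a regulator of cartilage and testis, scored -0.37 and was the 1 of 18 Sox genes, against 2 after the reset. Foxo1, a mediator of insulin signalling, scored 0.29, Foxd4 0.17 and Foxb2 0.13, making 3 of 41 forkhead genes (7.32%).

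Of 55 signalling ligands 3 lay in plateaus (5.45%), namely Bmp4 (-0.16), Tgfb2 (-0.01), a transforming growth factor, and Fgf7 (-0.22), a growth factor for epithelia, and 2 were found after the reset. These shares stand near the background of 4.72%.

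Genes that every cell uses and genes of the pluripotent state had from 0 to 3 members of a list in plateaus, to be read beside the background of 4.72%. None of 18 housekeeping genes and 1 of 29 pluripotency genes (3.45%) was found there. Of the 29, 27 were early, beside 64.3% of all protein-coding genes. The 1 in a plateau was Tet2, a dioxygenase that oxidises methylated cytosine, at 0.48. Ribosomal protein genes numbered 2 of 76 (2.63%), Rps12 at 0.38 and Rps23 at 0.22. DNA replication genes numbered 3 of 38 (7.89%), with Mcm3, a subunit of the replicative helicase, at 0.28, Cdc7, the kinase that fires origins, at 0.42, and Mtbp, a partner of the origin factor Treslin, at 0.28. After the reset no gene of these 4 lists lay in a plateau. Of 37 long neuronal and adhesion genes 1 lay in a plateau (Exoc4, 2.70%), or 3 (8.11%) after the reset. Late scores were found for 32 of the 37, beside 17.5% of all protein-coding genes.

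Some families in tandem arrays had many neighbouring members in 1 plateau. A slope on chromosome 10 (23603889 to 24541319, 937 kb) held 15 trace amine-associated receptor genes, a family that includes olfactory receptors for volatile amines, from -0.31 to 0.06. Taar5, whose promoter is printed above, scored -0.12 there, and Rps12, towards the late flank, 0.38. A dip on chromosome 7 (25982674 to 26982946, 1000.3 kb) held 8 cytochrome P450 genes of the Cyp2 family, which oxidise drugs and steroids, from 0.04 to 0.33. Its flanks reached 1.93 and 2.10, its largest inner gap was 74.9 kb, and Cyp2b9, whose promoter is printed above, scored 0.27. With them 10 of 99 cytochrome P450 genes lay in plateaus (10.1%), beside 4.72% of all protein-coding genes, and this 1 dip supplied 8 of the 10. After the reset 9 of 99 (9.09%) did, beside 4.71%.

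The shares of the next families are to be read beside 4.72% of all protein-coding genes. The Trim family of ubiquitin ligases had 15 of 68 genes in plateaus (22.1%), with 10 in 1 rise on chromosome 7 (104046215 to 104575141) from -0.16 to 0.26, beside 9 olfactory receptor genes. After the reset of 0 to the autosomal median the Trim count was 2 of 68 (2.94%), so this share depends on the zero point. Vomeronasal receptors, which detect pheromones, had 30 of 349 genes in plateaus (8.60%), with 16 in 1 slope on chromosome 13 (22676333 to 23246033) from -0.27 to 0.37. That slope had only 56 positions and an inner gap of 97.9 kb. Olfactory receptors had 46 of 1103 (4.17%) in 5 plateaus, and 114 (10.3%) after the reset, beside 4.71% of all protein-coding genes. Zfp zinc finger genes had 15 of 388 (3.87%), solute carriers 11 of 376 (2.93%), collagens 3 of 42 (7.14%) and potassium channels 3 of 92 (3.26%, and 6 after the reset). Keratins had 5 of 109 (4.59%), kinesins 1 of 37 (2.70%) and cadherins 1 of 23 (4.35%, and 2 after the reset). No serpin, clustered protocadherin or T-box gene lay in a plateau, out of 62, 57 and 12, and after the reset 2 serpins did.

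Antigen receptor segments made up the class with the largest share in plateaus, 120 of 374 V segments (32.1%), and they came from 2 plateaus. Of all autosomal genes 5.82% lay in plateaus. A slope on chromosome 14 (52540612 to 53878689, 1338 kb) held 113 of the 119 V segments placed on that chromosome, in the T cell receptor alpha and delta locus, with scores from -0.49 to 0.35 (median 0.10). It had no protein-coding gene midpoint. Its 102 positions left an inner gap of 200.0 kb, and its late flank reached only -0.56 over 74.8 kb. The other 7 lay in a slope on chromosome 13 (18570878 to 19370473), from -0.24 to 0.25, at the T cell receptor gamma locus.

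Coverage was sparse in the longest plateau. This run of 2017 kb on chromosome 12 (17942001 to 19959140) had 84 positions at a median spacing of 11458 bp and an inner gap of 184 kb. Its scores ran from -0.41 to 0.03 (median -0.21). The position before it lay 114 kb away at 0.54 and the position after it 63.4 kb away at -0.56, so neither edge was traced. It held 11 protein-coding genes, among them Zfp996, a zinc finger gene (-0.37), and Gm40847 (0.02). An inner gap over 100 kb was present in 7 plateaus, one over 50 kb in 14, and 3 had a median spacing over 10 kb. A step over 50 kb to the next position outside bordered 8 plateaus. The sparsest was a run on chromosome 14 (4731813 to 5292492) with 6 positions and an inner gap of 261 kb, and next a run on chromosome 7 (31922173 to 32594741) with 10 positions and a gap of 195 kb. No source used here says how repeated sequence was treated, and its part in these runs was not tested.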

How the data were processed

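The deposited value is a score per genomic position, which the authors made by setting early against late reads, with smoothing over 300 kb, per the name of the deposited table. Alignment used Bowtie2 on mm10, per the submitters' processing notes. No source used here states the counting, scaling, log base, zero point or read depth, so no depth-based precision is given. Amplification from few cells can add uneven coverage that 1 library per fraction cannot measure.

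Runs, flanks and slopes were computed from the score as deposited. The code that finds runs and sorts them by flank was checked on simulated profiles. These held flat stretches, unlike the undulating score, and the slope, central range and turning point measures were not checked. Flanks were the runs of positions beyond the band on each side. Genes came from a RefSeq table of GRCm38.p6. Of its genes 348 on scaffolds and 4 without coordinates were left out, and 46705 autosomal genes remained. A gene took the score nearest its midpoint, within 100 kb. Promoters were matched by gene for 82.0% of plateau genes, and strands came from the same table. Exons and introns were not analysed here.

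The plateaus, gene lists and alternatives were chosen with earlier results of these data known. Genes named were up to 5 nearest the centre of each of the 10 longest plateaus, up to 4 per list inside plateaus, the 5 longest genes wholly inside, 5 nearest the centre of the plateau with most genes, and for each flank type the gene nearest the centre of its longest plateau. Other genes, the array clusters, V segments, long genes by shape, turning points and all printed sequences were chosen after their values were seen. No p-value was computed. Python 3.11.15, numpy 2.4.6, pandas 2.3.3, scipy 1.17.1 and matplotlib 3.10.9 were used.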

Additional observations from a re-analysis of the deposited data

How the results depend on the processing

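The count of plateaus depends on the band and on the minimum length. With a band from -0.25 to 0.25 there were 21 plateaus over 14.3 Mb (0.559% of positions) with 91 protein-coding genes (6.37 per Mb), as 6 slopes, 9 rises and 6 dips. With a band from -0.75 to 0.75 there were 482 over 387 Mb (16.5%) with 2784 genes, as 206 slopes, 145 rises and 114 dips. A minimum of 300 kb gave 487 over 247 Mb (10.6%) with 1842 genes, as 202 slopes, 160 rises and 113 dips. A minimum of 1 Mb gave 15 over 18.4 Mb (0.711%) with 105 genes (5.70 per Mb), as 3 slopes, 7 rises and 5 dips. The zero point at the autosomal median gave 6.23% of positions and 6.43 genes per Mb, and joining runs across excursions of at most 100 kb gave 7.03%. Central range under 0.3, an alternative added after seeing the data, called 49 plateaus flat, against 122 by net change, which the flanks fix for dips and rises. With 1 gene per plateau the promoter CG ratio was 0.698. The other 32 of 67 values, some from added alternatives, moved by less than 1.5 times for counts or stayed within their counting interval. For the share of positions this interval was 5.62 to 5.77%. It counts positions as independent, although smoothing makes neighbours dependent.

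No paired analysis was possible because there was 1 library per fraction and a single score for the pair, with no replicate to leave out. Read depth is unknown. The score gives no error, its zero point sets which runs enter the band, and smoothing over 300 kb makes features below that length unresolved: 98 plateaus had a flank run shorter than 300 kb. With the sign of the score reversed, dips and rises exchange names.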
